A study of Mus musculus with 12 samples.

Results

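The comparison described here sets 6 libraries with an shRNA against Nizp1 beside 3 libraries with a control shRNA, all from mouse bone marrow progenitors that express the NUP98-NSD1 fusion. These 9 libraries, of 12 in the series, were chosen by their labels: 3 carry shNizp1#1, 3 carry shNizp1#2 and 3 carry sh#ctrl. Both hairpins were taken as 1 knockdown group, the replicate number 1 to 3 was a block, and only genes whose change has the same sign with each hairpin are described as common to the knockdown. The remaining 3 libraries hold the empty MSCV vector with sh#ctrl and serve only as a point of reference.

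The starting cells were marrow cells of the c-Kit+/Sca-1+/Lin- phenotype, a fraction rich in stem and early progenitor cells. Their RPMI medium held SCF at 100 ng/ml, and both interleukins, IL-6 and IL-3, stood at 20 ng/ml. Every one of the 9 libraries therefore comes from cells that were transduced with the retroviral fusion construct, selected with geneticin and then given a constitutive pLKO.1-puro shRNA. The labels name neither animals nor clones. The series text speaks of separate experiments. Reading the replicate number as the experiment is an inference from how the libraries pair, and a p-value here reflects only how much these libraries vary, which may be technical.

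NUP98-NSD1 joins the N-terminal part of a nucleoporin to NSD1, a methyltransferase of histone H3 lysine 36, and occurs in acute myeloid leukaemia, where it is known for sustained expression of the HoxA cluster. Nizp1 is a zinc finger protein with a SCAN domain that was found as a partner of NSD1 and is known as a transcriptional repressor. Its gene carries the symbol Zkscan17. An shRNA lowers a transcript through the RNA interference pathway, and a pair of hairpins with different target sites helps to tell what they share from what each does alone.

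Total counts ran from 3586538 to 6842589 per library over the 9 libraries, and 11970 of 55376 genes passed the filter on low counts. Levels are in CPM, a gene's count as a share of the library size after TMM scaling. The cultures, sorted at the start as progenitors, held much mast cell RNA: summed over 20 mast cell genes, the level was 52392 to 71435 CPM in the controls and 49618 to 68434 CPM with knockdown. Kit was at 1920 to 2556 CPM in the controls, and Ly6a, which encodes Sca-1, at 46.8 to 186 CPM. Cd3g of T cells had no count in any of the 9 libraries. Of the megakaryocyte markers Gp1bb had no count, while Itga2b was at 1213 to 1879 CPM and Gp1ba at 259.8 to 490.3 CPM. Libraries of the same number deviated together, so levels are mostly given by experiment.

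Zkscan17 was lower in all 6 knockdown libraries than in all 3 controls. In experiments 1, 2 and 3 it stood at 62.0, 49.9 and 61.5 CPM with the control shRNA, at 35.0, 26.9 and 30.4 CPM with shNizp1#1 and at 28.8, 18.1 and 26.9 CPM with shNizp1#2. The groups did not overlap, and in each experiment shNizp1#2 lay below shNizp1#1. Pooled, Zkscan17 (chromosome 11, 59485520 to 59506644, minus strand) fell by 1.08 on the log2 scale (SE 0.13, adjusted p = 0.0326, edgeR quasi-likelihood test with the replicate block). The hairpins one by one gave -0.92 and -1.24, and the difference between them was -0.33 (adjusted p = 0.152). Exons of the gene overlap with those of 4933439C10Rik on the other strand, whose pooled change was 0.18 (adjusted p = 0.797). Without the replicate block Zkscan17 was not called.

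The pooled comparison called 13 genes of 11970 at an adjusted p under 0.05 (0.109% of those tested), 7 higher and 6 lower (0.0585% and 0.0501%). All 13 had the same sign with each hairpin, as had 7791 of the 11970 tested genes. In all 13 each of the 6 knockdown libraries also lay on the same side of the control of its experiment. The second property was met by 7.71% of all tested genes for higher and 5.60% for lower values. The 13 were selected on these same libraries, so neither property is separate support for them. Groups with no overlap at all were found for 4 of the 13, Zkscan17, C4a, Stk19 and Mgat4b, and for 1.06% (higher) and 0.593% (lower) of tested genes. Pooled changes ran from 0.43 to 1.55 in size on the log2 scale, and 4 reached 1. In the pooled fit a difference between the hairpins counts as spread. When the hairpins were given 1 mean each and their average was tested, 145 genes were higher and 93 lower with the same sign, and all 13 were among them. When any 1 of the 3 control libraries was left out, or shNizp1#2 replicate 1, none of the 13 passed, and without shNizp1#1 replicate 2, 8 of them did.

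**Figure D1:**
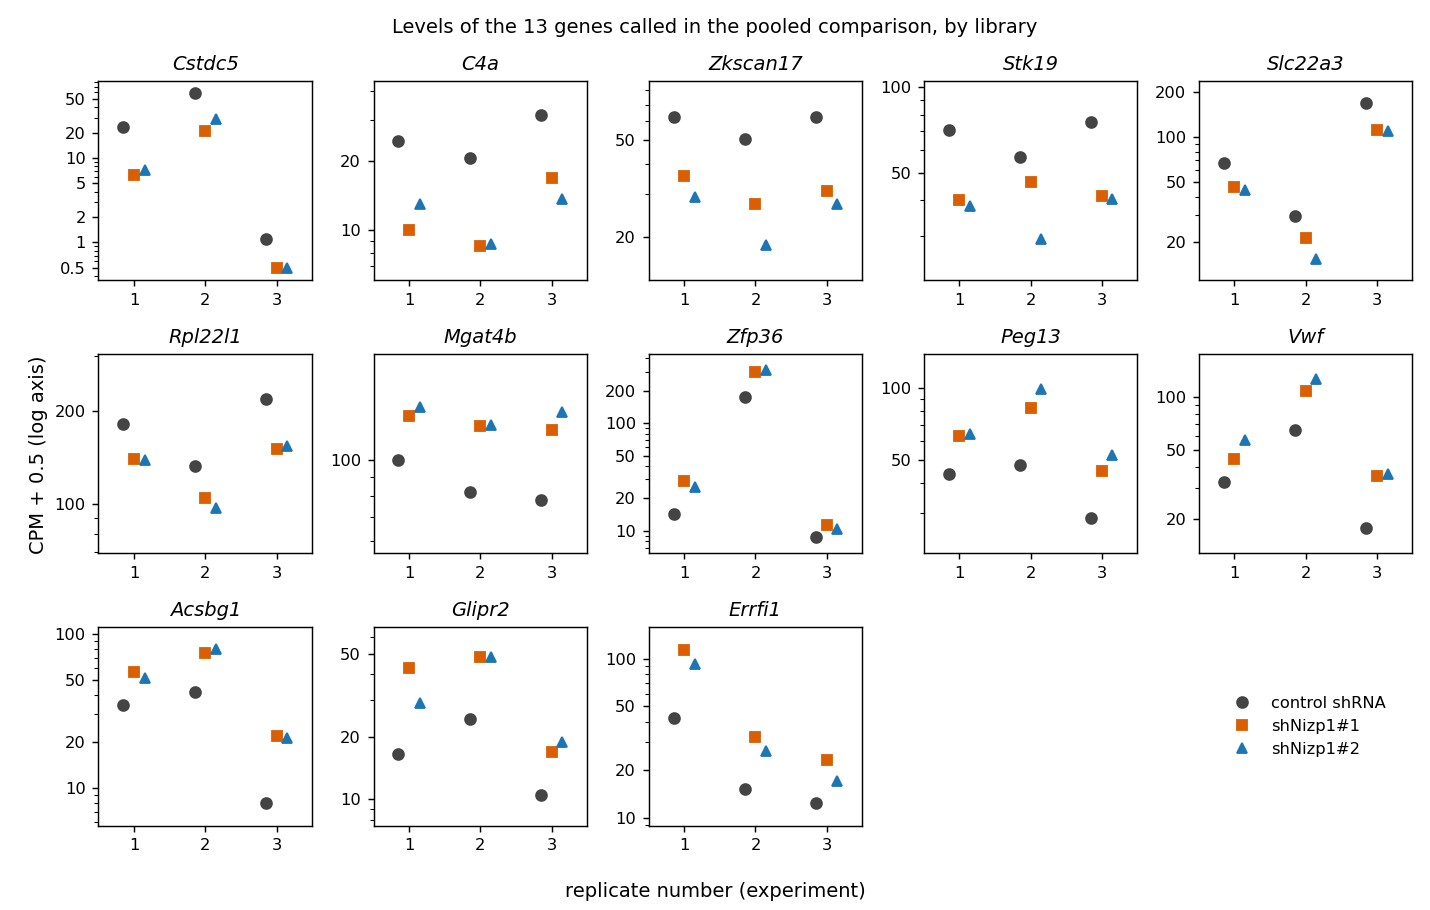
Level of each of the 13 called genes in the 9 libraries (CPM + 0.5, log axis) against replicate number, with circles for the control shRNA, squares for shNizp1#1 and triangles for shNizp1#2. In every panel both knockdown symbols lie on the same side of the circle of their experiment, while the level itself differs between experiments, as for Zfp36 with 175 CPM in the control of experiment 2 and 13.9 and 8.20 CPM in experiments 1 and 3.

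Of the genes that fell, C4a, a complement C4 gene, and its neighbour Stk19, which encodes a nuclear DNA-binding protein, lie next to each other on chromosome 17. C4a (34809094 to 34823454, minus strand) stood at 23.8, 20.1 and 31.0 CPM in the controls of experiments 1, 2 and 3. With shNizp1#1 it was at 9.52, 8.03 and 16.3 CPM, and with shNizp1#2 at 12.5, 8.25 and 13.1 CPM. All knockdown libraries were below all controls. The pooled log2 fold change was -1.15 (SE 0.14, adjusted p = 0.0326), with -1.15 for each hairpin. Reads of the related copy C4b could be shared with C4a by the counting. C4b itself averaged 4.48 CPM in the controls and changed by -0.42 (adjusted p = 0.689).

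Stk19 (34823993 to 34836945, minus strand) stood at 70.4, 56.3 and 74.8 CPM in the controls, at 39.5, 45.9 and 41.0 CPM with shNizp1#1 and at 37.6, 28.7 and 39.7 CPM with shNizp1#2. Here too the groups did not overlap. Its pooled change was -0.80 (SE 0.13, adjusted p = 0.0489). The next genes on the far side of Stk19 were not called: Dxo changed by -0.21 (adjusted p = 0.562), Skiv2l by -0.12 (adjusted p = 0.644) and Nelfe by -0.28 (adjusted p = 0.415). Within 100 kb of C4a, 8 genes were tested. The window was set around C4a, itself a called gene, and Stk19 was the other one called in it. Over all tested genes 0.109% were called. This neighbourhood was looked at after the values were seen.

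**Figure D2:**
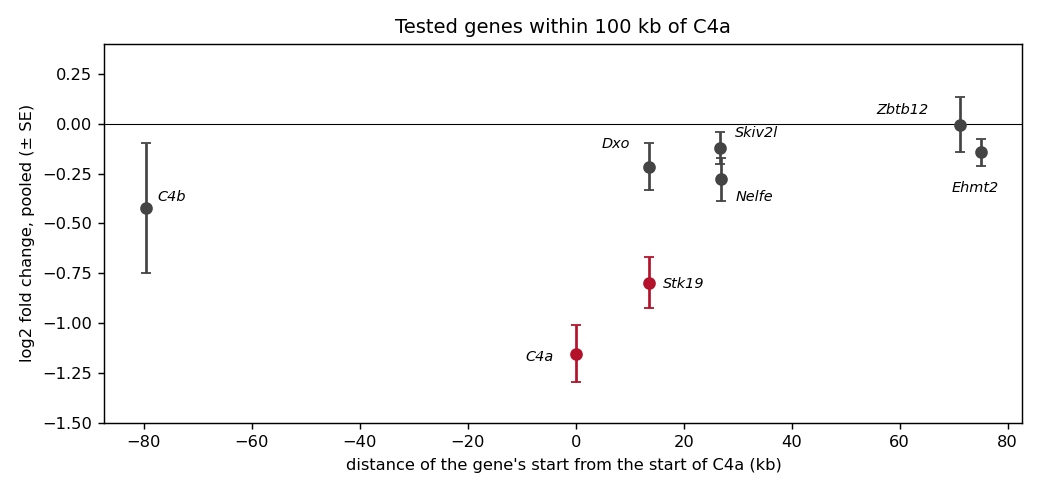
Pooled log2 fold change with its SE for the 8 tested genes within 100 kb of C4a, against the distance of their starts from the start of C4a in kb. C4a at -1.15 and Stk19 at -0.80 (red, adjusted p under 0.05) lie lowest, and the lowest of the other 6 genes (grey) is C4b at -0.42.

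Cstdc5, a cystatin-domain gene of the stefin family of cysteine protease inhibitors, changed by -1.55 (SE 0.24, adjusted p = 0.0432). It stood at 22.8, 57.6 and 0.586 CPM in the controls, at 5.71, 20.4 and 0 CPM with shNizp1#1 and at 6.64, 28.5 and 0 CPM with shNizp1#2. The first and second experiments carry this change, since the third has almost no Cstdc5 in any library. Its near relative Cstdc4 was called with each hairpin alone (-2.02 and -1.08, adjusted p = 0.00171 and 0.0451) and not in the pooled test (adjusted p = 0.152). Reads of such close copies may not have been told apart.

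Slc22a3 encodes an organic cation transporter that carries histamine and other monoamines. It was at 66.5, 29.2 and 170.0 CPM in the controls of experiments 1, 2 and 3, at 45.7, 20.6 and 111 CPM with shNizp1#1 and at 44.1, 14.9 and 109.6 CPM with shNizp1#2. The experiments differ more than the shRNAs, yet every knockdown library lay below its own control (-0.64, SE 0.10, adjusted p = 0.0432). Rpl22l1, a paralogue of the ribosomal protein gene Rpl22, averaged 177 ± 42.8 CPM (SD, n = 3) in the controls and 131 ± 24.1 CPM (SD, n = 6) with knockdown. Its change, -0.43 (SE 0.07, adjusted p = 0.0475), is the smallest of the 13.

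Among the genes that rose, Vwf encodes von Willebrand factor, the large adhesive glycoprotein of platelets and endothelium. It was at 32.3, 64.7 and 17.4 CPM in the controls, at 43.8, 109 and 34.7 CPM with shNizp1#1 and at 56.2, 127 and 35.8 CPM with shNizp1#2. Each knockdown library exceeded its own control, and the groups overlapped because experiment 2 was high throughout. The pooled change was 0.83 (SE 0.12, adjusted p = 0.0394), with 0.73 and 0.93 for the hairpins. Of 11 tested megakaryocyte and platelet genes, Vwf included, 8 lay above 0 with each hairpin and none below, and 6 had an unadjusted pooled p under 0.05. Of all 11970 tested genes, 4124 lay above and 3667 below 0 with each hairpin, and 782 were higher at an unadjusted pooled p under 0.05. In the list, Vwf was the one that passed the adjusted threshold, as 0.109% of all tested genes did. Pooled values were 0.45 for Pecam1 (adjusted p = 0.158), 0.64 for Itgb3 (adjusted p = 0.273), 0.65 for Pf4 (adjusted p = 0.425) and 1.27 for Ppbp (adjusted p = 0.350), against -0.02 for Itga2b (adjusted p = 0.967). Ppbp rests on low levels, at 0 to 5.64 CPM in the controls and 0 to 14.4 CPM with knockdown. Pf4 with shNizp1#2 in experiment 1, at 38.9 CPM, lay below its control at 45.3 CPM. Other members hardly changed, with 0.12 for Gp5, 0.08 for Nfe2 and -0.04 for Rab27b. The summed list was at 2750 to 3644 CPM in the controls and 2657 to 3804 CPM with knockdown. Of endothelial markers, Cdh5 had 1 count over the 9 libraries and Kdr reached 22.4 CPM, in the control of experiment 2. The part of these cell types in the change of Vwf was not tested. In RNA from whole cultures, a change in the share of a cell type and a change in the level per cell cannot be told apart, here and for the genes below.

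Errfi1 and Zfp36 encode feedback proteins that cells make soon after stimulation. Errfi1, also called Mig6, inhibits receptors of the EGF family, and Zfp36, tristetraprolin, binds AU-rich elements and speeds the decay of mRNAs, many of them for cytokines. Errfi1 was at 41.6, 14.7 and 11.9 CPM in the controls, at 113, 31.5 and 22.6 CPM with shNizp1#1 and at 91.3, 25.5 and 16.5 CPM with shNizp1#2. It rose by 1.02 (SE 0.16, adjusted p = 0.0432), the largest increase of the 7. Zfp36 rose by 0.75 (SE 0.11, adjusted p = 0.0432). Its levels were 13.9, 175 and 8.20 CPM in the controls, 28.6, 301 and 10.8 CPM with shNizp1#1 and 25.3, 314 and 9.93 CPM with shNizp1#2, so the smallest increases came in experiment 3. Fos, the immediate early transcription factor, was called with each hairpin alone (1.10 and 0.68, adjusted p = 0.00171 and 0.0345) and not in the pooled test (0.88, adjusted p = 0.161). It stood at 14.1, 439 and 6.83 CPM in the controls, at 19.3, 1065 and 16.4 CPM with shNizp1#1 and at 19.8, 760.0 and 9.79 CPM with shNizp1#2.

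The 100 bases before a RefSeq start of Fos (chr12:85473790-85473889, plus strand) and of Errfi1 (chr4:150854970-150855069, plus strand, the second of 2 listed starts) are shown because both genes rose with each hairpin and both windows hold the core of a cAMP response element. They come from RefSeq on GRCm38.p6. Capitals mark TGACGT on either strand, in Errfi1 as an overlapping pair that makes the full palindrome TGACGTCA.
Fos: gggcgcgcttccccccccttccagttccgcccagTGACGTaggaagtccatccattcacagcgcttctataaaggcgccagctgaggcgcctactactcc
Errfi1: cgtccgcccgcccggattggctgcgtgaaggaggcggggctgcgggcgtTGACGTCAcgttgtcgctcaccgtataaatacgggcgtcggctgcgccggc
Of 59 genes called with each hairpin with the same sign, described further on, 47 had an entry in the promoter table. In the 250 bases before the start, TGACGT was found on either strand in 4 of the 47 (8.51%), Egln3, Errfi1, Fos and Lama5, and in 6.47% of all 32851 windows. The full TGACGTCA was in 1 of the 47 and in 1.55% of all. Searched as well were TGANTCA (N for any base) and the CArG box (CC, a run of A or T, then GG). TGANTCA was in 2 of the 47 (4.26%), Kcne3 and Tiam1, and in 6.75% of all. The CArG box was in 2 of the 47 (4.26%), Glipr2 and Zfp36, and in 1.47% of all. The 47 are counted as genes, with a match before any listed start, and the share over all is counted by window. A gene with more starts has more chances, so these shares are not strictly comparable. A match describes letters only.

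Mgat4b, a Golgi enzyme that adds branches to N-glycans, separated the groups completely. It was at 99.5, 81.1 and 77.3 CPM in the controls, at 132, 124 and 121 CPM with shNizp1#1 and at 140.0, 125 and 136 CPM with shNizp1#2, a change of 0.60 (SE 0.08, adjusted p = 0.0394). Glipr2, a small protein bound to Golgi membranes, rose by 0.98 (SE 0.15, adjusted p = 0.0432), from 16.6 ± 6.99 CPM (SD, n = 3) to 33.4 ± 14.3 CPM (SD, n = 6). Acsbg1, an acyl-CoA synthetase for long fatty acids, rose by 0.94 (SE 0.13, adjusted p = 0.0394). Its control levels were 34.2, 41.6 and 7.42 CPM, with 56.2, 74.5 and 21.1 CPM for shNizp1#1 and 51.7, 79.5 and 20.5 CPM for shNizp1#2. Peg13, an imprinted non-coding RNA within an intron of Trappc9, rose by 0.76 (SE 0.11, adjusted p = 0.0394), from 43.4, 47.2 and 28.1 CPM to 62.8, 82.3 and 44.6 CPM with shNizp1#1 and 63.8, 98.8 and 51.9 CPM with shNizp1#2. Trappc9 on the same strand changed by -0.11 (adjusted p = 0.728).

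Adgrg3 and Aldh3a1 were higher in all 6 knockdown libraries than in all 3 controls and yet missed the pooled threshold. Adgrg3, an adhesion G protein-coupled receptor of granulocytes and mast cells also known as Gpr97, was at 137, 98.4 and 133 CPM in the controls, at 272, 181 and 249 CPM with shNizp1#1 and at 207, 161 and 178 CPM with shNizp1#2. Its pooled value was 0.76 (SE 0.12, adjusted p = 0.0578). The hairpins gave 0.92 and 0.57, each of them called (adjusted p = 3.38e-05 and 0.00219), and the difference of -0.35 between them was called too (adjusted p = 0.0159). Aldh3a1, an aldehyde dehydrogenase of detoxification, was at 24.5, 20.7 and 25.4 CPM in the controls, at 29.0, 37.0 and 46.5 CPM with shNizp1#1 and at 36.3, 42.3 and 52.0 CPM with shNizp1#2. Its pooled value was 0.78 (SE 0.14, adjusted p = 0.0788), and each hairpin alone was called (adjusted p = 0.0166 and 0.00491). Among 14 tested aldehyde dehydrogenases it was the one called with each hairpin, and Adgrg3 was the one among 9 tested adhesion receptors. Over all tested genes 0.493% were called with each hairpin with the same sign. Both genes were given beforehand as markers of this comparison, so a called member in each list is no separate result.

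A wider set comes from the fit with 1 mean per hairpin. shNizp1#1 alone called 423 genes (3.53% of those tested), 174 higher (1.45%) and 249 lower (2.08%). shNizp1#2 alone called 251 (2.10%), 176 higher (1.47%) and 75 lower (0.627%). The number called with each was 61, and 59 of these had the same sign (0.493%), 43 higher (0.359%) and 16 lower (0.134%). With 1 library left out, between 14 and 38 of the 59 were still called with each hairpin, with all 12 libraries 8 were, and without the replicate block none was. Both comparisons share the 3 control libraries, so the same control values enter both. All 13 genes of the pooled test are in this set, and the other 46 are not called there. In 58 of the 59 every knockdown library lay on the same side of its own control. The exception was Ngp, at 0.195 CPM in the control and 0.278 CPM with shNizp1#1 in experiment 3. Selection of the 59 on the same libraries favours such agreement, which is no separate support. The genes of this set named next were picked after their values were seen, and their pooled values did not pass the threshold.

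**Figure D3:**
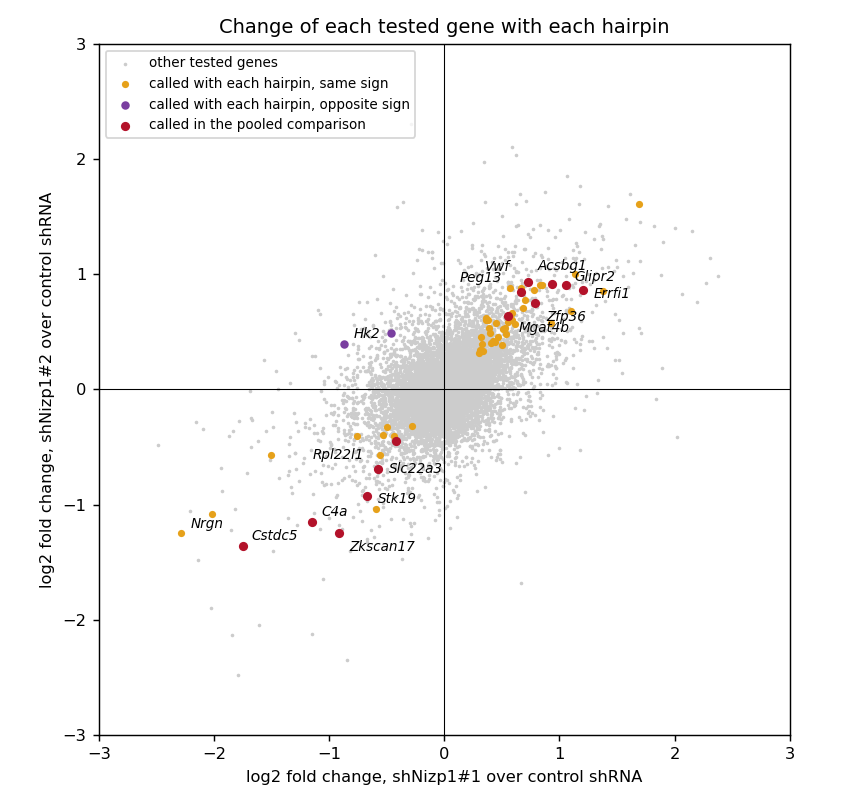
Log2 fold change of each tested gene with shNizp1#1 (x axis) and with shNizp1#2 (y axis) over the control shRNA. Red points are the 13 genes of the pooled test, orange points the other 46 called with each hairpin with the same sign, purple points the 2 called with opposite signs, and 1 gene lies outside the axes, which end at 3.

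These genes are given by what each is known to do, and the grouping carries no count or test. Among the 43 higher genes, the laminin chains Lamc1 (0.53 and 0.48 with the first and second hairpin) and Lama5 (0.51 and 0.53) were called with each. So were Plod1, a lysyl hydroxylase of collagen (0.39 and 0.54), Pear1, a platelet contact receptor (0.45 and 0.57), and the giant protocadherin Fat3 (1.69 and 1.61). Fat3 rests on low levels, at 0.976 to 2.63 CPM in the controls and 2.19 to 11.5 CPM with knockdown. Ahnak, a giant scaffold protein under the plasma membrane, gave 0.36 and 0.60.

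Fyn, a Src family kinase that works downstream of Kit and the IgE receptor, gave 0.44 and 0.41, and Prkcd, a protein kinase C, 0.30 and 0.31. Nlk, a kinase of the Wnt and Notch pathways, gave 0.59 and 0.60, and Matk, a kinase that restrains Src kinases, 0.83 and 0.90. Tiam1, an exchange factor for Rac, gave 0.32 and 0.46. On the side of the lower genes stood Ptpn6, the phosphatase SHP-1 that dampens Kit signalling, with -0.49 and -0.33. It was at 308, 317 and 274 CPM in the controls and at 181 to 243 CPM with knockdown, without overlap.

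The glucose transporter Slc2a3 gave 0.61 and 0.56 and Egln3, an oxygen-sensing prolyl hydroxylase, 0.47 and 0.45. The GDP-fucose transporter Slc35c1 gave 0.38 and 0.60. Lower were Slc25a1, the mitochondrial citrate carrier (-0.53 and -0.39), and Fdx1, the ferredoxin of mitochondrial steroid and lipoate synthesis (-0.56 and -0.57). Syp, synaptophysin, gave 0.85 and 0.91, and Npffr1, a neuropeptide receptor, 1.14 and 1.00. Nrgn, neurogranin, was lower (-2.28 and -1.25). Nrgn was at 48.6, 27.1 and 44.7 CPM in the controls, at 11.2, 6.02 and 8.20 CPM with shNizp1#1 and at 20.6, 8.41 and 23.1 CPM with shNizp1#2, without overlap.

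**Figure D4:**
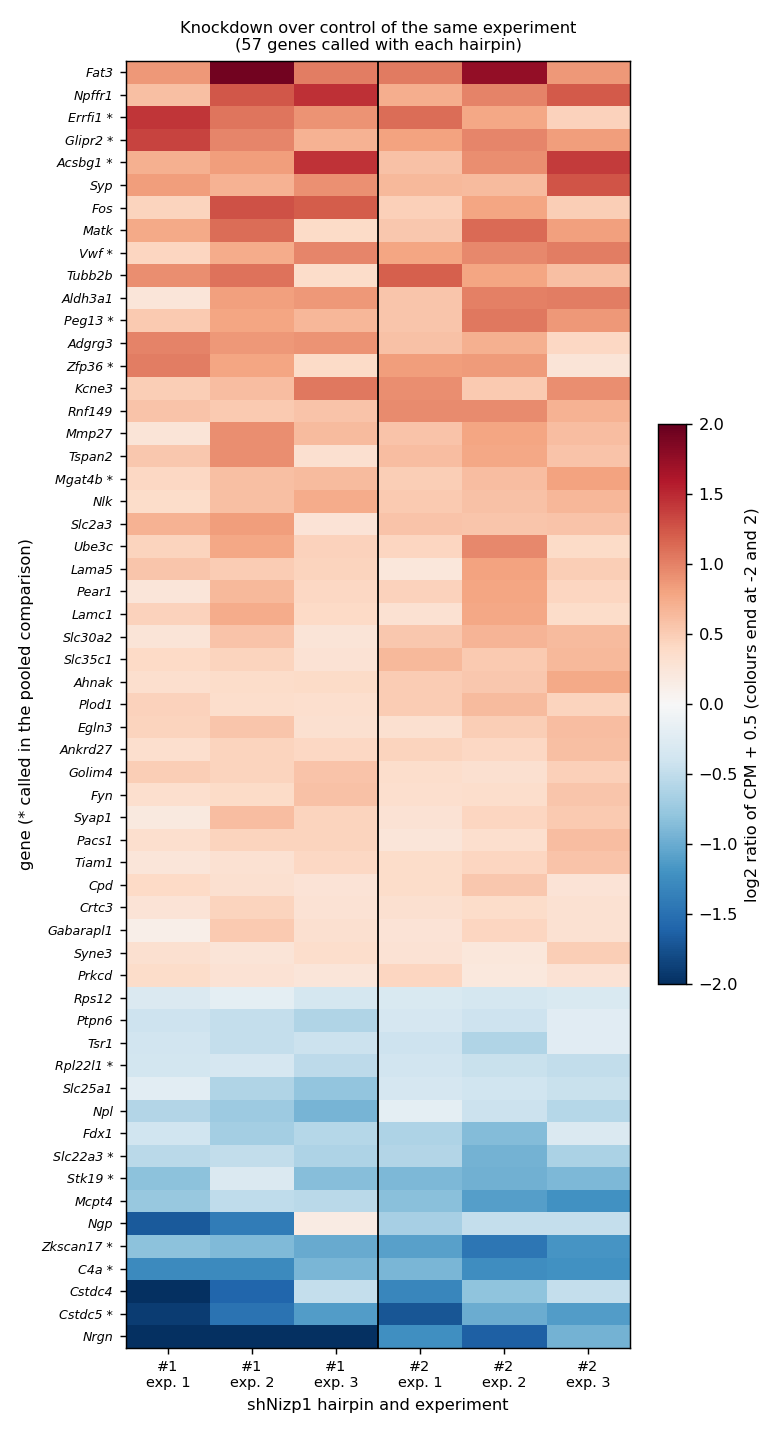
Log2 ratio of each knockdown library over the control of the same experiment for 57 of the 59 genes, ordered by pooled change, with shNizp1#1 in the left and shNizp1#2 in the right 3 columns (CPM + 0.5, colours end at -2 and 2). The 41 upper rows are red in every column, and in the 16 lower rows the single pale red cell is Ngp with shNizp1#1 in experiment 3.

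Some genes of translation were lower by small amounts. Besides Rpl22l1, the ribosomal protein gene Rps12, which has many near-identical copies in the genome, gave -0.28 and -0.32, at 857, 756 and 923 CPM in the controls and 594 to 748 CPM with knockdown, without overlap. Tsr1, a factor of small-subunit maturation, gave -0.44 and -0.40. Its exons overlap with those of Srr on the other strand, which changed by 0.10 (adjusted p = 0.908, pooled). Of 18 ribosome biogenesis genes, 16 lay below 0 with each hairpin and 0 above, with a median pooled log2 fold change of -0.19 against 0.01 over all tested genes, where 4124 of 11970 lay above and 3667 below 0 with each hairpin. None of the 18 was called in the pooled test. Ddx21, a helicase of the nucleolus, was called with shNizp1#1 (-0.39, adjusted p = 0.00606) and Fbl, fibrillarin, with shNizp1#2 (-0.44, adjusted p = 0.0140).

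Most immediate early and stress genes lay above 0, the list that holds Zfp36 and Fos. Of 16 tested, 13 lay above 0 with each hairpin and 1 below, with a median of 0.45. Zfp36 was called in the pooled test, and Fos with each hairpin. Of the 16, 8 were higher at an unadjusted pooled p under 0.05, as were 782 of all 11970 tested genes. Apart from Zfp36 and Fos, these were Fosb at 1.10 (adjusted p = 0.185), Egr2 at 1.13 (adjusted p = 0.297) and Jun at 0.67 (adjusted p = 0.323). The rest were Klf6, a zinc finger factor, at 0.31 (adjusted p = 0.228), Klf2 at 1.16 (adjusted p = 0.415) and Junb at 0.44 (adjusted p = 0.474). None of these others passed the pooled threshold. Summed over the list, the level in experiments 1, 2 and 3 was 1811, 6578 and 1593 CPM in the controls, 2734, 10270 and 1310.5 CPM with shNizp1#1 and 2832, 9736 and 1415 CPM with shNizp1#2. Experiments 1 and 2 were thus above their controls and experiment 3 below.

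For cell cycle, interferon and cholesterol genes the common sign hid differences between experiments. G2 and M phase genes lay below 0 with each hairpin in 21 of 22 members, with a median of -0.23, and none was called in the pooled test. Their sum in experiment 2 was 2558 CPM with the control, 1625 CPM with shNizp1#1 and 1822 CPM with shNizp1#2, while experiment 1 had 2716, 2784 and 2710 CPM and experiment 3 had 2815, 2916 and 2795 CPM. Interferon-stimulated genes lay below 0 in 17 of 19 (median -0.30, none called). Their sum was 2809 CPM with the control in experiment 2 against 1088 and 1047 CPM with the hairpins, whereas in experiment 1 the control had 349.8 CPM against 722 and 667 CPM. In experiment 3 the control had 279 CPM against 291 and 334 CPM. The sum was thus lower with knockdown in experiment 2 only. Cholesterol synthesis genes lay below 0 with each hairpin in 18 of 22 (median -0.29). None was called in the pooled test or with shNizp1#2, and 5 were called lower with shNizp1#1, where 2.08% of all tested genes were. The cholesterol list summed to 3855 CPM with the control in experiment 1 against 4103 and 4227 CPM with the hairpins. In experiment 2 it was at 3158 CPM against 2234 and 2586 CPM, and in experiment 3 at 3890 CPM against 2501 and 3699 CPM.

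**Figure D5:**
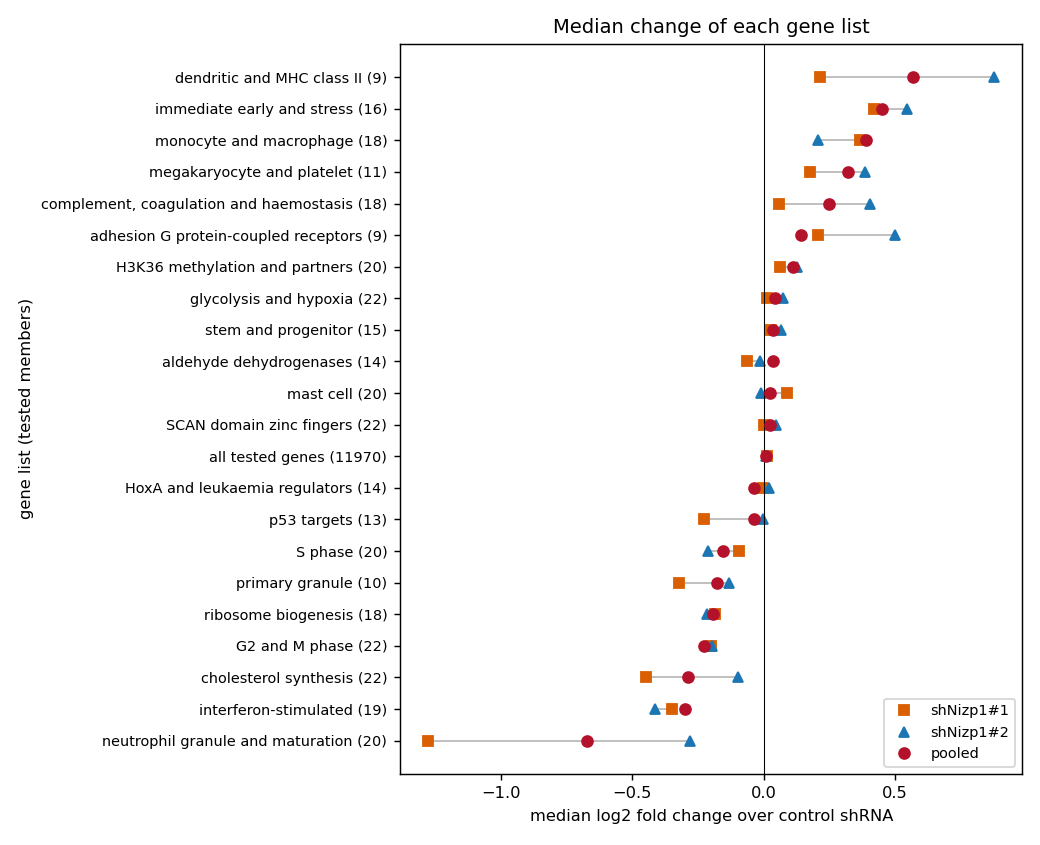
Median log2 fold change of each gene list with at least 9 tested members (number in brackets) for shNizp1#1 (squares), shNizp1#2 (triangles) and the pooled comparison (circles). Medians with shNizp1#1 and shNizp1#2 are 0.42 and 0.55 for immediate early genes and -0.20 and -0.20 for G2 and M phase genes, while neutrophil genes lie at -1.28 with shNizp1#1 and -0.28 with shNizp1#2.

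Markers of the blood lineages gave few common calls. Of 20 mast cell genes, 8 lay above and 6 below 0 with each hairpin (median 0.03). Mcpt4, a chymase of connective tissue mast cells, was called with each hairpin (-0.59 and -1.04) and not pooled (-0.80, adjusted p = 0.132). It was at 1047, 1087 and 1958 CPM in the controls, at 620.4, 764 and 1350 CPM with shNizp1#1 and at 588, 506 and 847 CPM with shNizp1#2. Each knockdown library lay below its own control, and the groups overlapped. Counts of related Mcpt copies may have been split. Of the megakaryocyte and platelet genes described beside Vwf, Pecam1, an adhesion receptor, was called with shNizp1#1 (0.51, adjusted p = 0.00879) and not with shNizp1#2 (0.39, adjusted p = 0.0528). Of 20 neutrophil genes 12 lay below and 2 above 0 with each hairpin. Ngp was called with each (-1.51 and -0.57), and 9 of the 20 were called lower with shNizp1#1 (2.08% of all tested genes) against 1 lower and 2 higher with shNizp1#2 (0.627% and 1.47%). In experiments 1, 2 and 3 the summed list was at 683, 2111 and 128 CPM in the controls, at 400.4, 1269 and 160.1 CPM with shNizp1#1 and at 580.0, 2264 and 168 CPM with shNizp1#2. The sum with shNizp1#1 was below the control in experiments 1 and 2 and above it in experiment 3. Most of the sum in experiment 3 was Anxa1, at 101 CPM in the control and 123 CPM with shNizp1#1. The granule genes were almost absent there, with Ngp at 0.195 and 0.278 CPM and S100a9 at 0.781 and 0.278 CPM. Cstdc4, Cstdc5 and Ngp are known from the neutrophil lineage, and the part of that lineage's share in their decrease was not tested. Of 14 HoxA and leukaemia genes 4 lay above and 3 below 0 with each hairpin, and none was called in the pooled test or with a single hairpin. Hoxa9 was at 18.6, 11.1 and 62.5 CPM in the controls, at 14.5, 4.30 and 56.0 CPM with shNizp1#1 and at 16.4, 7.77 and 69.4 CPM with shNizp1#2 (pooled -0.28, adjusted p = 0.632).

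Genes whose zinc fingers and SCAN domain resemble those of Nizp1 gave no other common call. Of 22 tested SCAN domain genes, Zkscan17, the target itself, was the one called in the pooled test, against 0.109% of all tested genes. Zkscan1 was called with shNizp1#1 (-0.61, adjusted p = 0.00788) and was at 0.05 with shNizp1#2. The fusion partners, whose counts may include reads of the construct, were not called pooled (Nsd1 0.11, adjusted p = 0.827, and Nup98 0.16, adjusted p = 0.713). Nsd1 was at 780.1, 706 and 741 CPM in the controls, at 807, 993 and 908 CPM with shNizp1#1 and at 706, 613 and 788 CPM with shNizp1#2.

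The hairpins themselves differed in 667 genes (5.57% of those tested), and of the 59 common genes 5 were among them: Adgrg3, Nrgn, Mcpt4, Npl and Ngp. None of the 13 was. The pooled fit counts a hairpin difference as spread and so selects against such genes, and this absence is no separate sign of agreement. Hk2, hexokinase 2, and Lilra6, a leukocyte receptor, were called with each hairpin in opposite directions and were therefore left out. Hk2 was at -0.87 with shNizp1#1 and 0.40 with shNizp1#2, and Lilra6 at -0.46 and 0.49.

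Against the empty vector, the fusion called 33 genes (0.276%) in a fit to all 12 libraries with the replicate block. That comparison shares its control shRNA libraries with the knockdown, so its values are set beside the others with no measure of agreement. None of the 13 genes was called in it. Vwf was at -0.71 with the fusion (adjusted p = 0.111), Peg13 at -0.54 (adjusted p = 0.284), C4a at 0.41 (adjusted p = 0.474) and Stk19 at 0.27 (adjusted p = 0.652). Slc22a3 was at 1.80 (SE 0.70, adjusted p = 0.425). Nsd1, Nup98 and Hoxa9 were called, with 2.01, 1.13 and 6.41.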

How the data were processed

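RNA from 12 libraries was read as single 75 nt reads from a stranded mRNA kit with 1 µg of RNA, per the labels' protocols. The file deposited by the authors gives read counts by gene, as whole numbers. The tools named in the submitters' processing notes are Trimmomatic 0.32, STAR 2.5.3a with mm10, and featureCounts, for which version, strand setting and annotation were not given in the sources used here, so reads of a gene and of an antisense partner may not have been told apart. Coordinates are those of the file.

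Counts of the 9 fusion libraries were filtered (at least 10 counts, filterByExpr), scaled by TMM and tested with the robust quasi-likelihood test of edgeR 4.0.16 (R 4.3.3) with terms for replicate number and knockdown. Benjamini-Hochberg adjustment ran over all tested genes, with a threshold of 0.05. Values per hairpin came from the same fit with 1 mean per hairpin, and the SE from the F statistic. The procedure was tested on simulated data with equal changes for both hairpins and the same spread setting for all genes. These settings differ from the data, so that test checks the code and not the calls made here. Same-numbered libraries deviated together in all 9 pairs (r between 0.35 and 0.87, against a median of -0.18 for other pairs between groups), so the number is treated as the experiment. Replicates of a group differed by at least 17.8 times the sampling noise (chi-square per degree of freedom). Log2 ratios within an experiment use CPM + 0.5.

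Named by rule were Zkscan17, Nsd1, Nup98, Hoxa9, Adgrg3, Aldh3a1, Vwf and C4a, then up to 12 called genes per direction that reached 5 CPM on average in either group, then up to 12 called with each hairpin and up to 3 called per list, 18 genes in all. Other genes were picked after their values were seen, and some genes of the lists and of the set called with each hairpin are not reported here. The members, lists and markers were chosen with earlier results of these data known. Alternatives used DESeq2 1.42.0 and limma 3.58.1 (voom), other scalings and filters, the fit without the block, all 12 libraries, and omitted libraries or experiments. Lists are described by counts and medians, with no list test.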

Additional observations from a re-analysis of the deposited data

Results flagged for a closer look

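Besides the differences between hairpins already given (Adgrg3 -0.351, Nrgn 1.04, Mcpt4 -0.448, Npl 0.353 and Ngp 0.939 on the log2 scale, shNizp1#2 minus shNizp1#1), the test of that difference picked out 4 more of the genes named. Nsd1 and Nup98 were lower with shNizp1#2 than with shNizp1#1, with differences of -0.365 and -0.359 (adjusted p = 0.0454 and 0.0365, edgeR with the replicate block), while neither hairpin alone passed against the control. Whether reads of the fusion construct enter these counts was not tested. Hk2 differed by 1.26 (adjusted p = 1.28e-05) and Lilra6 by 0.947 (adjusted p = 0.000152), with opposite signs against the control.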

How the results depend on the processing

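The counts of genes depended strongly on the processing. In the pooled test, 7 genes were higher and 6 lower. These became 201 and 90 with no filter on low counts, 0 and 2 with a filter at 30 counts, 52 and 23 with DESeq2, 145 and 93 when the hairpin means were averaged, and 1 and 3 with all 12 libraries. Without the replicate block they were 0 and 0 (257 genes at an unadjusted p under 0.05), and Zkscan17 was at -1.06 and not called. Leaving out 1 library gave 0 to 6 higher and 0 to 4 lower genes. Leaving out experiment 1, 2 or 3 gave 0, 0 and 0 higher and 0, 2 and 0 lower, with Zkscan17 at -1.16 and -1.08 and not called without experiments 1 and 3. Zkscan17 ran from -1.15 to -0.9997 with 1 library left out and was called in 5 of these 9 fits. Of the genes called with each hairpin, counted under these settings after the data were seen, 43 were higher and 16 lower. They became 124 and 43 with no filter, 5 and 3 with all 12 libraries, and 0 and 0 without the replicate block, with 27 higher for DESeq2. Leaving out 1 library gave 8 to 59 higher and 6 to 26 lower, and leaving out experiment 1 or 3 gave 7 and 9 or 7 and 5. RLE and upper-quartile scaling kept all 13 genes and voom 11. Nsd1, which was not called, ran from -0.00458 (without shNizp1#1 replicate 2) to 0.191 with 1 library left out. The causes were not tested. With 3 control libraries, the depth and number of libraries limit which small changes can be seen.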
